A study of Mus musculus with 15 samples.

Results

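Mature dermal adipocytes of mice at postnatal day 49 (P49) were compared with those at postnatal day 29 (P29), 3 libraries at each age. Every gene at 1 FPKM (fragments per kilobase of gene, scaled to the reads counted in the library) or more in at least 3 of the 15 libraries of the series was tested, 12259 of 35275 genes in the deposited table. Both groups were C57BL/6 mice. The labels give no genotype, treatment or sex and no stage of the hair cycle. Adipocytes were taken from digested dorsal skin with Collagenase IV and Dispase II and recovered as the floating fraction after centrifugation. The other 9 libraries, of P21, P25 and P35, entered the fit through its estimate of spread and are given where they place a change in time. Nothing in the labels says whether the 3 libraries of an age came from separate animals, so p-values reflect only how far these libraries differ, and that spread may be technical.

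Dermal adipocytes form a fat layer around and beneath hair follicles. The layer is known to thicken while follicles grow and to thin as they regress and rest, and its cells exchange signals with the follicle and take part in skin defence. Mature adipocytes each sit in a basement membrane of type IV collagen, laminins, nidogens and perlecan, held within a looser mesh that includes type VI collagen. Immune cells lie between adipocytes and can be carried along with them. In RNA from bulk tissue, fewer cells of a type and less RNA per cell cannot be told apart.

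The libraries held 23214103 to 32219574 reads counted to genes. Markers of mature adipocytes were abundant in all 6 libraries compared: the mean log2(FPKM + 1) of 24 such genes was 9.35 to 9.47 at P29 and 9.21 to 9.33 at P49. Adipoq, the adiponectin gene, stood at 3051, 3282 and 3046 FPKM in P29 replicates 1, 2 and 3 and at 2480.3, 2437 and 2554 in P49 replicates 1, 2 and 3, the order used below (log2 -0.33 ± 0.20, adjusted p = 0.427, with the standard error after ±). P29 replicate 2 stood apart from the other 2 P29 libraries. Over the 500 genes that varied most in these 6 libraries, its position on the leading principal component was -4.06, against -16.4 and -17.3 for the others and 10.9 to 14.6 at P49. Its mean log2 level was 4.89 for 17 macrophage genes, against 3.91 and 4.05, and 3.64 for 15 endothelial genes, against 2.84 and 2.55. P25 replicate 2 also stood apart from its age. It bears on the comparison only through the spread. Counts of a list's calls without a library are given where they move by over 1.5 times. Summed levels, here and below, cover all matched genes of a list, tested or not. Markers of skeletal muscle had higher means at P49 in 11 of 11 tested genes (summed level 57.9 to 76.3 FPKM at P29 and 83.6 to 96.97 at P49), and 5 of 5 tested erythroid genes had lower means (summed level 43.4 to 103 and 13.5 to 40.6 FPKM). None of these passed in limma or voom, with 0 and 4 at an unadjusted p under 0.05, and their part in the results was not tested.

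Between P29 and P49, 375 genes passed an adjusted p of 0.05 (3.06% of those tested), 215 higher at P49 (1.75%) and 160 lower (1.31%). Rises were led by Pon1, C7 and the class II antigen presentation genes, and falls by Mest, Adam12 and collagens. Of the called genes 63 rose and 33 fell by at least 2-fold on the log2(FPKM + 1) scale, which understates the change of low genes. The median difference over all tested genes was 0.0093 on that scale. How many of all tested genes had a higher mean was not counted. In limma 2230 tested genes (18.2%) had an unadjusted p under 0.05, in either direction. Counts of list members at that level, or with a higher or lower mean, are descriptions beside this share and this median. In all 375 the 3 libraries of one age lay wholly above those of the other, as they did for 17.2% of all tested genes in the direction of a rise and 16.2% in that of a fall. The count was 229 without P29 replicate 2 (148 higher and 81 lower, 202 of them among the 375) and 1346 without P25 replicate 2, which kept all 375. Without any one of the other 5 P29 and P49 libraries it was 94 to 124, lowest without P49 replicate 1. Of all tested genes 6.26% rose and 4.71% fell without P25 replicate 2, and counts of list members without it stand beside these shares. After quantile normalization 178 rose and 173 fell, so the share of rises moved from 57.3% to 50.7%. Where leaving out 1 of the 15 libraries ended the call of a named gene, the highest adjusted p without such a library is given beside it, with the number of libraries that had this effect where it was above 1.

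**Figure D1:**
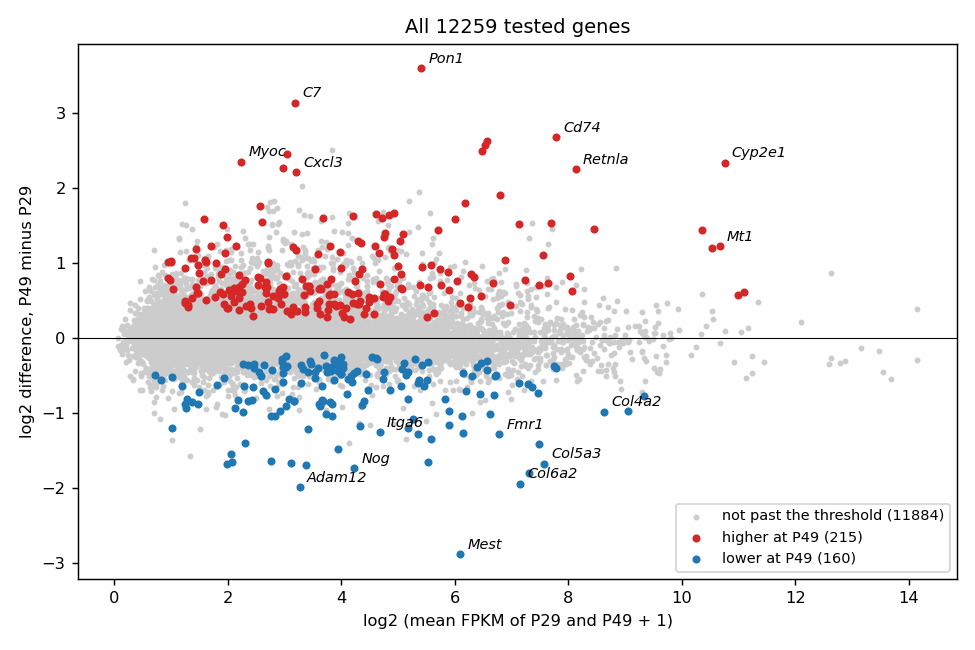
Log2 difference between P49 and P29 (vertical) against log2 of the mean FPKM of both ages plus 1 (horizontal), 1 point per tested gene. Red points are the 215 genes higher at P49, blue points the 160 lower and grey points the rest. Pon1 at 3.59 and Mest at -2.88 are the outermost called genes.

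Pon1, which encodes the lipoprotein-associated esterase paraoxonase (chr6:5168090-5193946, ENSMUSG00000002588, GRCm38 here and below), had the largest rise. Its level was 5.63, 5.59 and 5.11 FPKM at P29 and 72.05, 65.03 and 95.7 at P49 (log2 3.59 ± 0.32, adjusted p = 0.000273). The P29 libraries were close together, and the lowest P49 library lay far above them. At P35 its mean was 8.91 ± 2.05 (SD, n = 3 here and below), so most of the difference lay between P35 and P49 (adjusted p = 0.00207). Cyp2e1, a cytochrome P450 that oxidises small molecules such as ethanol and acetone, was already abundant at P29 with 586, 463 and 678 FPKM (chr7:140763739-140774975, ENSMUSG00000025479). It stood at 2870.3, 2719.7 and 3032 FPKM at P49 (log2 2.33 ± 0.41, adjusted p = 0.0118, 0.0564 without P49 replicate 1, 1 of 3 such libraries). Its P35 mean of 836 ± 306 FPKM was again much nearer to P29. Inmt, a methyltransferase of small amines (chr6:55170626-55175043, ENSMUSG00000003477), rose from 1.53 ± 0.371 to 12.9 ± 2.56 FPKM (log2 2.45 ± 0.48, adjusted p = 0.0193, 0.0851 without P49 replicate 1, 1 of 5 such libraries). Myoc, which encodes the secreted glycoprotein myocilin (chr1:162639150-162649693, ENSMUSG00000026697), was at 0.319, 0.795 and 0.548 FPKM at P29 and at 8.04, 6.304 and 6.31 at P49 (log2 2.35 ± 0.36, adjusted p = 0.00536). All 3 of its P29 values were below 1 FPKM.

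**Figure D2:**
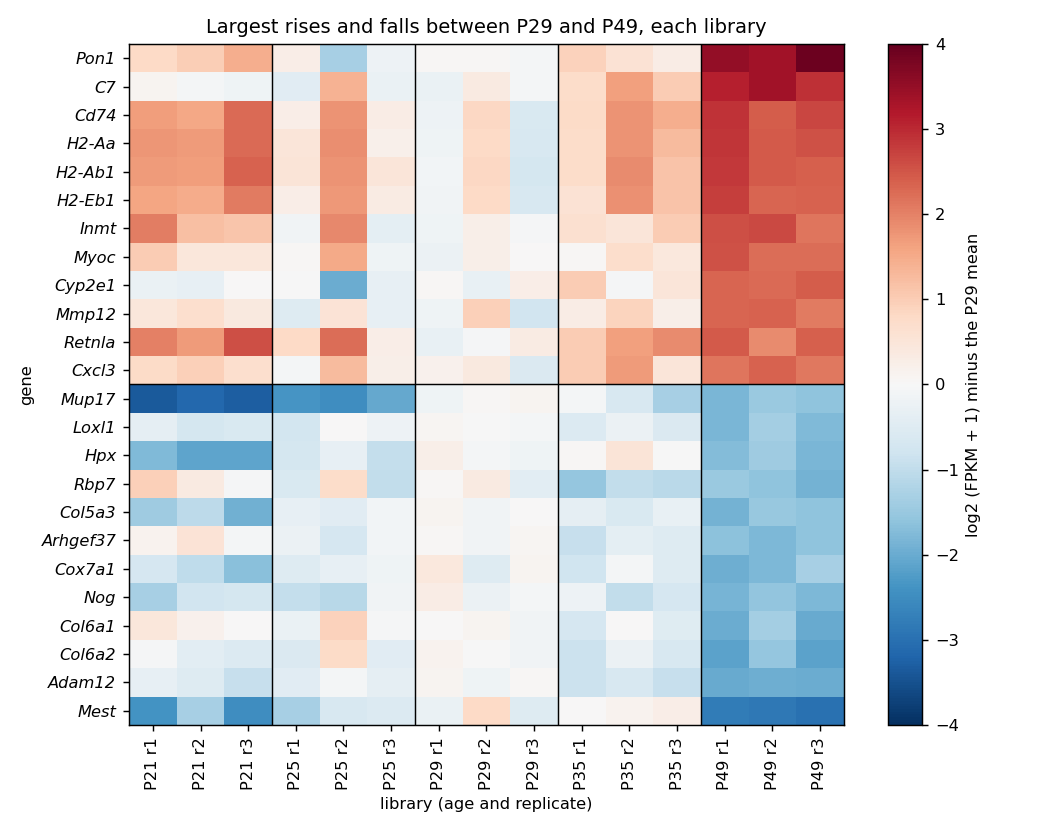
Colour shows log2(FPKM + 1) minus the P29 mean for the 12 largest rises (upper block) and 12 largest falls (lower block) in all 15 libraries, in columns by age and replicate. In every row the 3 P49 columns stand apart from the 3 P29 columns, and in Mest and Hpx the P35 columns resemble those of P29.

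Genes of MHC class II antigen presentation, through which cells show peptides to helper T cells, rose together. Of 13 tested genes in a list of class I and II genes 4 rose and 0 fell, all 4 of them class II, and the list's median difference was 0.52. The class II promoters are known for an X box, bound by the RFX complex, and a Y box, bound by NF-Y. The windows of H2-Aa and H2-Eb1 are shown because both genes were among the largest rises. Each is the 250 bases before the RefSeq start, 5′ to 3′ (GRCm38.p6, H2-Aa at chr17:34287824-34288073 on the minus strand and H2-Eb1 at chr17:34305617-34305866 on the plus strand). Capitals mark matches to the motifs searched.
H2-Aa: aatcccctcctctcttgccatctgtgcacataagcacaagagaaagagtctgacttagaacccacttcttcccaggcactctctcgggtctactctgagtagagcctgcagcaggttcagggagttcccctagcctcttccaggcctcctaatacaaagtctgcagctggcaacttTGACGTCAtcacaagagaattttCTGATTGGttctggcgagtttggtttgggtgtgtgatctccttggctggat
H2-Eb1: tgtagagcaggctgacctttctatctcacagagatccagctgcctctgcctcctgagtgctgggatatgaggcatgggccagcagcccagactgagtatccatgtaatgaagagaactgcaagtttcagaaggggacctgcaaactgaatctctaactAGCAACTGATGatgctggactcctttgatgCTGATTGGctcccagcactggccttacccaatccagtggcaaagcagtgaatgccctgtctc
The Y box letters CTGATTGG lay 51 to 44 bases before the start of H2-Aa and 62 to 55 before that of H2-Eb1. Of 32851 windows of the same length, 3.83% held them on either strand. The X box core lay 92 to 82 bases before the start of H2-Eb1, and 0.0578% of windows held it. In H2-Aa the cyclic AMP response element TGACGTCA lay 74 to 67 bases before the start, with 1.55% of windows holding it. These motifs do not overlap each other here, and a match is a description of letters only. H2-Ab1 and Cd74 had no entry in the promoter table.

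Cd74, the invariant chain that escorts class II molecules (chr18:60803848-60812646, ENSMUSG00000024610), was at 50.2, 102 and 37.4 FPKM at P29 and 437, 317 and 374 at P49 (log2 2.67 ± 0.44, adjusted p = 0.00851). H2-Aa, the alpha chain of I-A (chr17:34282744-34287827, ENSMUSG00000036594), was at 22.3, 43.9 and 15.8 FPKM at P29 and 189, 141 and 152 at P49 (log2 2.62 ± 0.43, adjusted p = 0.00851). P29 replicate 2 was the highest P29 library for both, and still below every P49 library. H2-Ab1, the beta chain of I-A (chr17:34263209-34269418, ENSMUSG00000073421), rose from 27.9 ± 15.6 to 156 ± 26.9 FPKM (log2 2.56 ± 0.43, adjusted p = 0.00957, 0.0558 without P49 replicate 1). H2-Eb1, a beta chain of I-E (chr17:34305877-34316199, ENSMUSG00000060586), rose from 27.9 ± 15.4 to 149 ± 27.6 FPKM (log2 2.48 ± 0.44, adjusted p = 0.0126, 0.0675 without P49 replicate 1, 1 of 3 such libraries). The peptide loading genes H2-DMa and H2-DMb1 were at 3.64 ± 1.72 and 2.93 ± 1.803 FPKM at P29 and at 10.01 ± 2.03 and 8.39 ± 1.83 at P49, short of the threshold (adjusted p = 0.0575 and 0.0909). The class I genes H2-K1, H2-D1 and B2m differed by 0.16, 0.26 and 0.07 on the log2 scale (adjusted p = 0.644, 0.302 and 0.828). Ciita, the class II master regulator, did not reach the level needed for testing. Of the list 5 genes rose without P29 replicate 2, 6 without P25 replicate 2 and 2 without P49 replicate 1.

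Macrophage markers were also higher by their means. All 17 tested members of the macrophage and monocyte list had a higher mean at P49, with a median of 0.56. In limma 4 had an unadjusted p under 0.05, beside 18.2% of all tested genes in either direction. Of the list Cd14 passed, the endotoxin co-receptor (log2 1.58 ± 0.38, adjusted p = 0.043, 0.167 without P29 replicate 1, 1 of 10 such libraries). Cd14 did not pass in voom. The summed level of the list was 550.4 to 1137 FPKM over the P29 libraries and 1088 to 1514 over the P49 libraries, so the ranges overlapped. Csf1r, the macrophage growth factor receptor, was at 18.6, 32.96 and 22.8 FPKM at P29 and 42.5, 30.7 and 32.7 at P49 (log2 0.52 ± 0.44, adjusted p = 0.588). Its groups overlapped, as did those of Cd68 (log2 0.55 ± 0.50, adjusted p = 0.615), C1qa (log2 0.68 ± 0.47, adjusted p = 0.486) and Cd163 (log2 0.26 ± 0.40, adjusted p = 0.786). Csf1r and these markers were picked after values were seen, so their overlap does not speak for the whole list. At P35 the order differed between the gene sets. C1qa averaged 135, 316 and 209 FPKM at P29, P35 and P49, whereas Cd74 averaged 63.3, 153 and 376. Of 6 tested dendritic cell markers, a list added after values were seen, all had a higher mean at P49 and 1 passed, the integrin chain Itgax (CD11c) at 0.463, 1.35 and 0.303 and then 2.58, 2.700 and 2.06 FPKM (log2 1.06 ± 0.24, adjusted p = 0.033, 0.137 without P29 replicate 1, 1 of 5 such libraries). Of these 6, 3 rose when P25 replicate 2 was left out or with median-ratio scaling, and 2 with quantile normalization. None rose in voom, or without P29 replicate 1 or 3 or any P49 library. The summed level of dendritic markers was 10.2 to 16.98 FPKM at P29 and 22.7 to 28.7 at P49. These ranges did not overlap, as was so for 17.2% of all tested genes, taken singly, in that direction. The dendritic markers Flt3, Xcr1, Clec9a, Ccr7 and Cd207 did not reach the level for testing. The part of these cells in the class II rise was not tested.

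**Figure D3:**
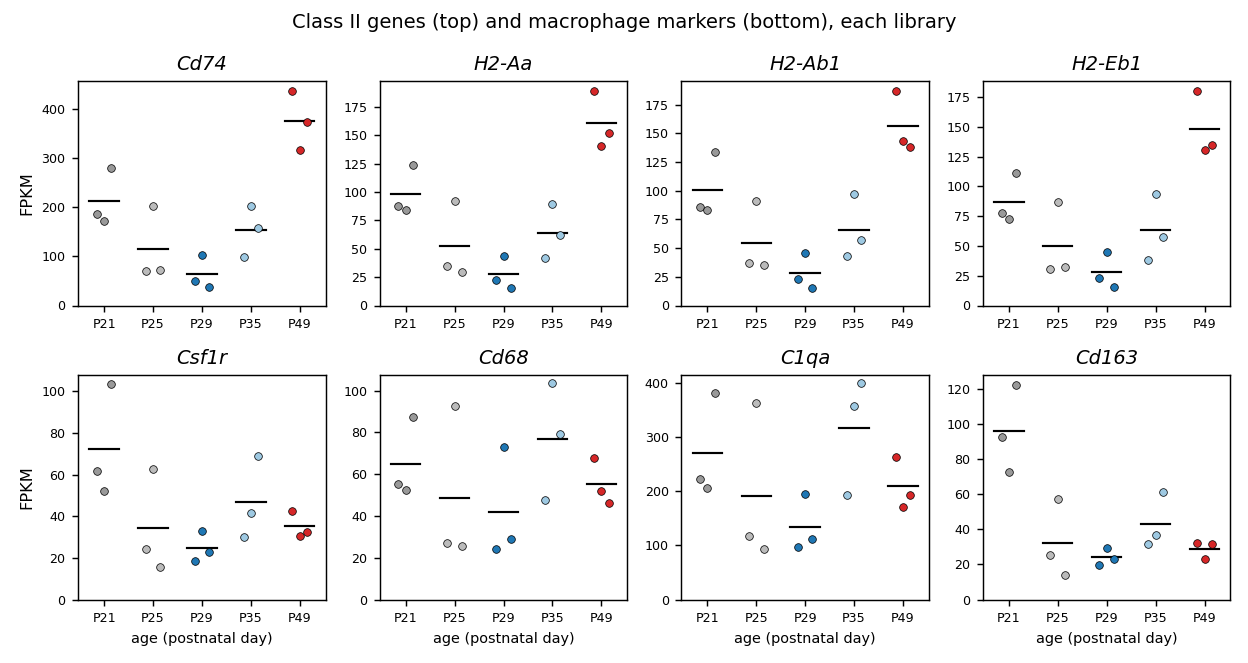
FPKM of 4 class II genes (top row) and 4 macrophage markers (bottom row) in each library by age. Points are libraries and bars are means of 3. The class II genes are highest at P49, while C1qa is highest by its mean at P35 (316 FPKM) and Cd163 at P21 (95.8 FPKM).

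Several chemokines and other inflammatory mediators rose. Of 26 tested chemokine ligands, a family collected by symbol after values were seen, 5 rose and 0 fell, and 23 had a higher mean, with a median of 0.86. Cxcl3, which draws neutrophils (chr5:90786103-90788086, ENSMUSG00000029379), was at 2.67, 3.31 and 1.21 FPKM at P29 and 13.4, 15.9 and 13.2 at P49 (log2 2.21 ± 0.36, adjusted p = 0.00775). Its relatives Cxcl2 and Cxcl1, with the same role, rose from 106 ± 17.9 to 308 ± 47.99 FPKM (log2 1.53 ± 0.29, adjusted p = 0.0183, 0.0897 without P49 replicate 1, 1 of 5 such libraries) and from 189.8 ± 45.9 to 512 ± 52.6 FPKM (log2 1.45 ± 0.32, adjusted p = 0.0303, 0.122 without P29 replicate 3, 1 of 5 such libraries). Ccl3 and Ccl4, which draw monocytes and lymphocytes, rose from 31.7 ± 6.33 to 112 ± 20.2 FPKM (log2 1.79 ± 0.40, adjusted p = 0.0329, 0.14 without P49 replicate 1, 1 of 6 such libraries) and from 46.7 ± 15.4 to 174 ± 35.03 FPKM (log2 1.91 ± 0.44, adjusted p = 0.0394, 0.148 without P49 replicate 1, 1 of 10 such libraries). Tnf, the inflammatory cytokine, was at 10.8, 18.6 and 10.1 FPKM at P29 and 50.3, 44.2 and 32.9 at P49 (log2 1.64 ± 0.31, adjusted p = 0.0151, 0.0821 without P49 replicate 1, 1 of 4 such libraries). Its P35 mean of 37.1 FPKM already lay near that of P49. Ccl2, the monocyte attractant, was at 80.8, 113 and 75.8 and 262, 207 and 204 FPKM, without overlap but short of the threshold (log2 1.32 ± 0.42, adjusted p = 0.116). With any P29 or P49 library left out 1 to 3 chemokines rose (3 without P29 replicate 2), and 12 without P25 replicate 2.

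Immediate early genes, which digestion of tissue is known to induce, had higher means too. Of 26 such genes 25 had a higher mean at P49, with a median of 0.61, and 1 passed, the stress gene Ier3 (log2 1.04 ± 0.26, adjusted p = 0.0492, 0.168 without P49 replicate 1, 1 of 13 such libraries), which no longer passed without any one P29 or P49 library or in voom. Their mean log2 level was 5.58 to 6.16 at P29 and 6.30 to 6.53 at P49. The 1 call of 26 stands beside 3.06% of all tested genes called. Without P25 replicate 2, 13 of the 26 rose. The part of dissociation in the chemokine rise was not tested. None of 20 interferon response genes passed in limma, 7 had an unadjusted p under 0.05 in the direction of a rise, and voom called 0 too, while 4 rose without P25 replicate 2.

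Some secreted defence proteins rose as well. Of 20 tested genes of innate defence and complement 3 rose and 0 fell (median 0.85): Cxcl1, Cd14 and Ptx3. Without P25 replicate 2, 10 of them rose and 1 fell, and without P29 replicate 1 or 3 or any P49 library 0 did. Ptx3, a soluble pattern recognition protein, rose from 73.3 ± 24.03 to 205 ± 30.7 FPKM (log2 1.51 ± 0.35, adjusted p = 0.0394, 0.16 without P49 replicate 1, 1 of 10 such libraries). Camp, the antimicrobial cathelicidin known from dermal adipocytes, was at 17.1, 8.43 and 9.83 FPKM at P29 and 5.83, 5.95 and 4.33 at P49 (log2 -0.96 ± 0.27, adjusted p = 0.0748). The groups did not overlap, with P29 higher, and the difference missed the threshold. Among 16 tested complement components, a family collected after values were seen, 2 rose, both of the membrane attack complex. C7 (chr15:4988762-5063773, ENSMUSG00000079105) was at 0.533, 1.37 and 0.763 FPKM at P29 and 14.98, 18.1 and 13.1 at P49 (log2 3.13 ± 0.40, adjusted p = 0.00199). C6 rose from 4.35 ± 1.02 to 11.4 ± 1.72 FPKM (log2 1.22 ± 0.23, adjusted p = 0.0148, 0.0785 without P29 replicate 1, 1 of 4 such libraries). The family's count was 4 without P25 replicate 2 and 1 without P29 replicate 1 or 3 or P49 replicate 2 or 3. Mmp12, the macrophage metalloelastase (chr9:7344381-7369499, ENSMUSG00000049723), was at 1.37, 4.11 and 0.566 FPKM at P29 and 12.5, 12.7 and 10.3 at P49 (log2 2.26 ± 0.37, adjusted p = 0.0083). P29 replicate 2 was its highest P29 library, as for the macrophage markers. Retnla, a resistin-like secreted protein made by adipose tissue and by alternatively activated macrophages (chr16:48842552-48844461, ENSMUSG00000061100), was at 78.2, 92.7 and 119 and then 528, 359 and 499 FPKM (log2 2.25 ± 0.43, adjusted p = 0.0169, 0.0829 without P49 replicate 1, 1 of 3 such libraries). Saa2, an acute phase protein, shares sequence with close copies, so its level is uncertain. It rose from 14.02 ± 4.45 to 38.1 ± 15.4 FPKM (log2 1.35 ± 0.33, adjusted p = 0.0495, 0.19 without P49 replicate 1, 1 of 12 such libraries). It did not pass in voom or with quantile normalization or median-ratio scaling.

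Some antioxidant genes and the metallothioneins rose. Of 22 antioxidant and glutathione genes 6 rose and 0 fell, with a median of 0.36, and both tested metallothioneins rose. Many such genes are known targets of the factor NRF2, which binds antioxidant response elements. The windows of Srxn1 and Mt2 are shown because each held the letters TGANTCAGC, present in 1.02% of all windows. They are the 250 bases before the RefSeq start (GRCm38.p6, Srxn1 at chr2:152105274-152105523 and Mt2 at chr8:94172368-94172617, both on the plus strand), with the match in capitals.
Srxn1: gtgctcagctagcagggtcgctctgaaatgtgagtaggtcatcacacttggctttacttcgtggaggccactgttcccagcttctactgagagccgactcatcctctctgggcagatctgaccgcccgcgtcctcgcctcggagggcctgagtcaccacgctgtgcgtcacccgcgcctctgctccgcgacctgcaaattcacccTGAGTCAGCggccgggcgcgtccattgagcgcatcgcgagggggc
Mt2: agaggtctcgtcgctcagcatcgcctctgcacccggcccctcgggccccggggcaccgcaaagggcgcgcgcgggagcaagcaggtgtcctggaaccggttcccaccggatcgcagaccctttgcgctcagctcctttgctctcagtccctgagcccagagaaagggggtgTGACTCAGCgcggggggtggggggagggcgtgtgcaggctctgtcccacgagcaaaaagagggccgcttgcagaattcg
The match lay 45 to 37 bases before the start of Srxn1 and 79 to 71 before that of Mt2. In all, 9 motifs were searched on both strands in the windows of 19 of 24 called genes of 4 lists (class I and II, antioxidant, glucocorticoid and matrix), the other genes having no entry. The motifs also included the E-box CACGTG, the D-box TTATGTAA, the sterol regulatory element TCACNCCAC, the C/EBP motif TTGCGCAA and the PPAR response element, and none of these 5 had a match in those windows. Beside the windows printed, Prdx1 held 1 antioxidant response element and Col5a3 held 1 Y box.

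Srxn1, which repairs oxidised peroxiredoxins, was at 11.998, 13.8 and 9.59 FPKM at P29 and 25.6, 42.9 and 47.8 at P49 (log2 1.60 ± 0.32, adjusted p = 0.0228, 0.0936 without P29 replicate 3, 1 of 4 such libraries). The P49 libraries were spread widely and all above P29. Gsta3, a glutathione transferase, was at 19.9, 8.93 and 13.7 and then 51.96, 42.6 and 40.3 FPKM (log2 1.66 ± 0.34, adjusted p = 0.0266, 0.109 without P49 replicate 1, 1 of 5 such libraries). Gstm1, another transferase, was at 109.6, 111 and 112 and then 195, 177 and 196 FPKM (log2 0.77 ± 0.15, adjusted p = 0.0193, 0.0861 without P49 replicate 1, 1 of 6 such libraries). Gstm2 is a close relative of Gstm1, so the split of reads between both is uncertain. Its level rose from a mean of 62.4 ± 5.33 FPKM to 90.8 ± 6.604 (log2 0.54 ± 0.10, adjusted p = 0.0148, 0.0736 without P29 replicate 3, 1 of 3 such libraries). Txnrd1, the cytosolic thioredoxin reductase, rose from 34.3 ± 2.24 to 55.7 ± 7.23 FPKM (log2 0.68 ± 0.15, adjusted p = 0.0303, 0.12 without P49 replicate 3, 1 of 6 such libraries), and the peroxiredoxin Prdx1 from 106 ± 4.85 to 144 ± 11.4 FPKM (log2 0.44 ± 0.07, adjusted p = 0.00957, 0.0558 without P29 replicate 3, 1 of 2 such libraries). Mt2 and Mt1, which bind zinc and copper, stood at 559.7, 953 and 649 and 835, 1195 and 929 FPKM at P29. At P49 they stood at 2028, 1787 and 1912 (log2 1.44 ± 0.27, adjusted p = 0.0169, 0.0842 without P29 replicate 1, 1 of 5 such libraries) and 2347, 2179 and 2288 FPKM (log2 1.22 ± 0.23, adjusted p = 0.0148, 0.0782 without P29 replicate 1, 1 of 5 such libraries). Of the antioxidant list 4 genes rose without P29 replicate 2 and 10 without P25 replicate 2. With other single libraries of the compared ages left out, 3 rose without P29 replicate 1, 2 without P49 replicate 1 or 2, and 0 without P29 replicate 3 or P49 replicate 3.

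A set of matrix genes fell, among them chains of the basement membrane and of the pericellular mesh. Of 36 extracellular matrix genes 10 fell and 0 rose, with a median of -0.47. The count was 8 to 9 with any P29 or P49 library left out and 15 without P25 replicate 2, where 2 rose. Among 24 tested collagen chains, collected after values were seen, 6 fell, a number that was the same without any single P29 or P49 library and 10 without P25 replicate 2. Col6a1 and Col6a2, chains of type VI collagen (chr10:76708792-76726168, ENSMUSG00000001119 and chr10:76595762-76623630, ENSMUSG00000020241), had the largest falls of these chains. Col6a1 was at 247, 263 and 219 FPKM at P29 and 60.04, 93.3 and 58.7 at P49 (log2 -1.80 ± 0.29, adjusted p = 0.00733). Col6a2 was at 247, 222 and 202 and then 50.1, 75.3 and 49.5 FPKM (log2 -1.94 ± 0.31, adjusted p = 0.00733). P49 replicate 2 was the highest P49 library for both and still below every P29 library. Their partner chain Col6a3 was at 104 ± 14.4 and 51.5 ± 4.89 FPKM, without overlap but short of the threshold (adjusted p = 0.117). Col5a3, a chain of type V collagen (chr9:20770050-20815067, ENSMUSG00000004098), was at 313, 264 and 294 FPKM at P29 and 77.4, 99.9 and 94.3 at P49 (log2 -1.67 ± 0.19, adjusted p = 0.000762). Loxl1, which cross-links elastin (chr9:58287723-58313212, ENSMUSG00000032334), was at 73.8, 68.8 and 65.4 and then 18.6, 26.5 and 19.4 FPKM (log2 -1.66 ± 0.18, adjusted p = 0.000762).

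Basement membrane genes, 20 of them in a list added after values were seen, gave 9 falls and 0 rises, with a median of -0.51. The count was 5 to 7 with any P29 or P49 library left out, lowest without P49 replicate 1, and 11 without P25 replicate 2. Col4a1 and Col4a2, the chains of the main type IV collagen, are divergent genes whose RefSeq starts lie 21 bases apart on chromosome 8. Col4a1 was at 806, 863 and 769 FPKM at P29 and 449, 483 and 489.9 at P49 (log2 -0.78 ± 0.11, adjusted p = 0.00289). Col4a2 was at 540.1, 534 and 508 and then 256, 273 and 269 FPKM (log2 -0.98 ± 0.11, adjusted p = 0.000977), and both fell in narrow groups. Col15a1, found at the outer face of basement membranes, was at 275, 259 and 246 and then 89.5, 106 and 97.1 FPKM (log2 -1.41 ± 0.15, adjusted p = 0.000641). The nidogens, which link laminin to collagen IV, fell too: Nid2 from 99.8 ± 15.3 to 40.5 ± 3.06 FPKM (log2 -1.27 ± 0.17, adjusted p = 0.00244) and Nid1 from 189 ± 12.5 to 123 ± 8.78 FPKM (log2 -0.62 ± 0.10, adjusted p = 0.00851, 0.0561 without P49 replicate 1). Of the laminin chains Lamb1 fell from 90.4 ± 7.99 to 54.9 ± 5.03 FPKM (log2 -0.71 ± 0.10, adjusted p = 0.00262) and Lama4, the alpha chain known from adipocytes, from 91.5 ± 10.7 to 64.03 ± 4.83 FPKM (log2 -0.50 ± 0.12, adjusted p = 0.0404, 0.169 without P49 replicate 1, 1 of 12 such libraries). Lamb3 fell from 1.400 ± 0.245 to 0.667 ± 0.0954 FPKM (log2 -0.52 ± 0.13, adjusted p = 0.0481, 0.172 without P49 replicate 1, 1 of 13 such libraries). Lamc1, their common partner, was at 117 ± 3.86 and 98.6 ± 3.46 FPKM (log2 -0.25 ± 0.09, adjusted p = 0.162). Hspg2, which encodes perlecan, fell from 122 ± 10.7 to 85.8 ± 3.202 FPKM (log2 -0.51 ± 0.09, adjusted p = 0.0145, 0.0796 without P49 replicate 1, 1 of 4 such libraries).

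**Figure D4:**
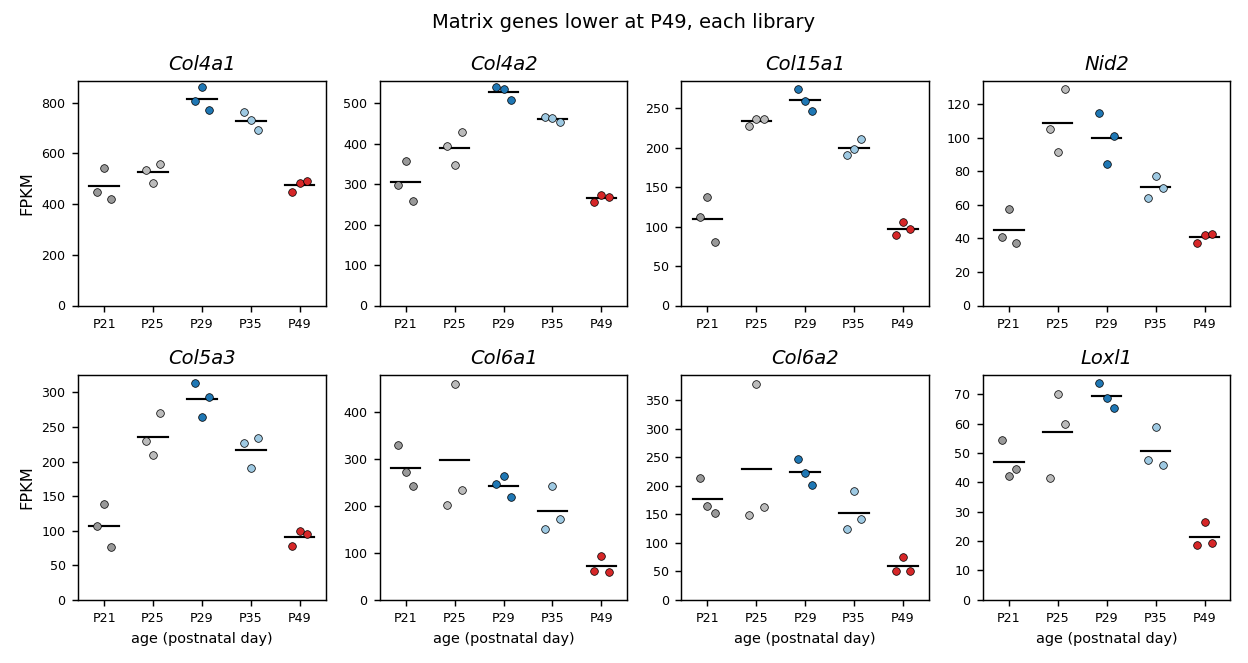
FPKM of 8 matrix genes in each library by age, with points for libraries and bars for means of 3. All 3 P49 libraries lie below all 3 P29 libraries in each panel, and the P35 means lie between, as in Col15a1 at 259.8, 199.9 and 97.4 FPKM.

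Itga6, the integrin chain that binds laminin, had 1 of the 2 smallest adjusted p-values of all genes and is named here for that, after its value was seen. It was at 35.1, 35.8 and 34.4 FPKM at P29, 24.1 on average at P35 and 13.8, 14.6 and 14.03 at P49 (log2 -1.26 ± 0.09, adjusted p = 3.74e-05). Col1a1 and Col3a1, fibrillar collagens typical of fibroblasts, did not pass. Col3a1 was named after its values were seen, and the fibrillar chain Col5a3 passed. Col1a1 was at 437, 775 and 368 FPKM at P29 and 349, 580.03 and 213 at P49 (log2 -0.51 ± 0.70, adjusted p = 0.759), and Col3a1 at 781 ± 212 and 527 ± 159 (log2 -0.57 ± 0.55, adjusted p = 0.636). Both ages overlapped in both genes. Sparc, a collagen-binding protein abundant in adipocytes, was at 2666 ± 289.9 and 1835 ± 132 FPKM (log2 -0.54 ± 0.20, adjusted p = 0.178). Of 17 preadipocyte and fibroblast markers 0 passed in limma or voom, with 2 at an unadjusted p under 0.05, and the list's median was -0.01. Pdgfra, their receptor for platelet-derived growth factor, was at 1.89, 4.12 and 2.08 FPKM at P29 and 3.43, 4.17 and 2.804 at P49, overlapping (log2 0.31 ± 0.55, adjusted p = 0.817). Of the list 2 rose without P25 replicate 2. Of 15 endothelial markers 0 passed in either, with 0 at an unadjusted p under 0.05. Their median was -0.27, and their summed level was 114 to 279 FPKM at P29 and 124 to 183 at P49. Pecam1, which encodes CD31, was at 12.004, 24.4 and 9.11 and then 11.3, 13.1 and 9.902 FPKM, highest in P29 replicate 2 (log2 -0.27 ± 0.49, adjusted p = 0.824). The part of endothelial cells, which also make basement membrane, in the fall was not tested.

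Mest had the largest fall of all called genes. It is an imprinted gene of the hydrolase fold family, known to be high in enlarging adipocytes (chr6:30723547-30748455, ENSMUSG00000051855). Its level was 91.7, 194 and 76.97 FPKM at P29, 113, 123 and 135 at P35 and 15.05, 14.5 and 13.1 at P49 (log2 -2.88 ± 0.35, adjusted p = 0.00148). The P29 and P35 libraries overlapped, and the P49 libraries lay close together far below both (adjusted p = 0.00338 for P49 against P35). Of 17 tested imprinted genes 1 other fell, Grb10, an adaptor that restrains insulin signalling, from 30.3 ± 1.45 to 21.95 ± 1.24 FPKM (log2 -0.45 ± 0.08, adjusted p = 0.0118, 0.067 without P49 replicate 1, 1 of 3 such libraries). Of the list 4 fell with P25 replicate 2 left out. H19 and Igf2 were at 2.996 ± 1.47 and 0.816 ± 0.549 FPKM at P29 and 2.66 ± 0.484 and 0.791 ± 0.108 at P49, overlapping (adjusted p = 0.958 and 0.986). Adam12, a membrane metalloprotease known from adipocyte development (chr7:133883199-134232146, ENSMUSG00000054555), was at 15.8, 12.7 and 14.96 FPKM at P29 and 2.84, 2.95 and 2.87 at P49 (log2 -1.99 ± 0.14, adjusted p = 3.74e-05). Its P35 mean of 7.85 ± 0.843 FPKM lay between. Together with Pon1 it was 1 of 2 genes to pass when a change above 2-fold was required.

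Other large falls were in genes of varied roles. Nog, the secreted inhibitor of bone morphogenetic proteins (chr11:89300638-89302332, ENSMUSG00000048616), was at 34.1, 23.4 and 26.3 FPKM at P29 and 6.902, 8.62 and 7.302 at P49 (log2 -1.74 ± 0.27, adjusted p = 0.0056). Hpx, which carries free haem (chr7:105591613-105600116, ENSMUSG00000030895), was at 6.57, 5.09 and 4.68 and then 0.943, 1.37 and 0.809 FPKM, with a P35 mean of 6.37 (log2 -1.66 ± 0.19, adjusted p = 0.000982). Arhgef37, a guanine nucleotide exchange factor by its name (chr18:61493794-61536536, ENSMUSG00000045094), fell from 5.03 ± 0.496 to 0.876 ± 0.136 FPKM (log2 -1.68 ± 0.19, adjusted p = 0.000762). Rbp7, a retinol binding protein of fat (chr4:149449687-149454978, ENSMUSG00000028996), fell from 12.3 ± 3.44 to 3.13 ± 0.572 FPKM (log2 -1.66 ± 0.38, adjusted p = 0.0378, 0.134 without P49 replicate 3, 1 of 8 such libraries). Rbp7 had already a mean of 4.74 FPKM at P35. Mup17 (chr4:61591929-61595871, ENSMUSG00000096688) fell from 9.28 ± 0.996 to 2.31 ± 0.373 FPKM (log2 -1.64 ± 0.24, adjusted p = 0.00355). It belongs to the major urinary proteins, lipocalins with near-identical copies, so its level is uncertain. Of 8 tested members Mup17 and Mup20 (log2 -1.40 ± 0.19, adjusted p = 0.00289) fell, while Mup11 (log2 1.59 ± 0.32, adjusted p = 0.0224, 0.0894 without P29 replicate 1, 1 of 5 such libraries) and Mup10 (log2 1.12 ± 0.21, adjusted p = 0.0148, 0.078 without P29 replicate 1, 1 of 4 such libraries) rose.

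Of 24 core adipocyte identity genes 1 fell and 0 rose. The gene that fell was Pparg, the nuclear receptor that drives adipocyte differentiation. It was at 207, 193 and 199 FPKM at P29 and 124, 130.2 and 125 at P49 (log2 -0.66 ± 0.16, adjusted p = 0.0461, 0.16 without P49 replicate 1, 1 of 11 such libraries). With P25 replicate 2 left out 6 identity genes fell, and with any one P29 or P49 library left out 0 did. In voom 0 identity genes fell, and with quantile normalization 2 did. The lipid droplet genes Plin1 and Cidec were at 1274 ± 106 and 2192 ± 73.96 FPKM at P29 and 1318 ± 71.5 and 2403 ± 92.6 at P49 (adjusted p = 0.928 and 0.833). Leptin (Lep) was at 284, 314 and 232 and then 290.3, 226 and 286 FPKM (log2 -0.05 ± 0.24, adjusted p = 0.945). The lipases Lipe and Pnpla2 were at 457 ± 27.8 and 1266 ± 73.98 FPKM at P29 and 441 ± 16.8 and 1159.9 ± 28.7 at P49 (adjusted p = 0.931 and 0.822). Of 20 lipolysis genes 0 passed in limma or voom, with 5 at an unadjusted p under 0.05, while 4 fell and 1 rose without P25 replicate 2. The proliferation marker Mki67 was low, at 1.17 ± 0.675 and 0.589 ± 0.215 FPKM (log2 -0.42 ± 0.39, adjusted p = 0.63). A p that misses the threshold does not show that these levels were equal.

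Each of the following lists of lipid synthesis and fuel use gave 1 or 2 calls, from which nothing is read beside the 3.06% of all genes. Of 22 fatty acid synthesis genes 1 rose, the desaturase Fads1 (log2 0.61 ± 0.14, adjusted p = 0.0366, 0.148 without P49 replicate 1, 1 of 9 such libraries). Scd1, the main stearoyl-CoA desaturase, was at 5124, 3564 and 4985 FPKM at P29 and 7949.6, 8571 and 7992 at P49, without overlap but short of the threshold (log2 0.86 ± 0.25, adjusted p = 0.0869). Fasn, fatty acid synthase, was at 1055, 525 and 1018 and 977, 1253 and 1021 FPKM, overlapping, with P29 replicate 2 lowest (log2 0.38 ± 0.36, adjusted p = 0.629). Of 24 cholesterol synthesis genes 1 rose, the squalene synthase Fdft1 (log2 0.92 ± 0.20, adjusted p = 0.0298, 0.109 without P49 replicate 2, 1 of 6 such libraries), while Hmgcs1, at the head of the pathway, was at 58.7 ± 10.9 and 41.2 ± 2.44 FPKM (log2 -0.48 ± 0.18, adjusted p = 0.166). Of 18 triglyceride synthesis and uptake genes 1 rose, Mogat1 (log2 0.79 ± 0.14, adjusted p = 0.0118, 0.0634 without P29 replicate 3, 1 of 3 such libraries), and 13 had a lower mean. Of 23 fatty acid oxidation genes 1 fell, Cpt1a, which admits fatty acids to mitochondria, from 26.2 ± 3.59 to 14.2 ± 1.698 FPKM (log2 -0.84 ± 0.14, adjusted p = 0.0102, 0.0526 without P49 replicate 3, 1 of 2 such libraries). In the insulin and glucose list the ubiquitous glucose transporter Slc2a1 and the hexokinase Hk2 rose, 2 of 20, from 8.904 ± 2.28 to 20.6 ± 2.98 FPKM (log2 1.15 ± 0.24, adjusted p = 0.0273, 0.11 without P29 replicate 3, 1 of 5 such libraries) and from 63.4 ± 3.45 to 84.7 ± 1.43 FPKM (log2 0.41 ± 0.10, adjusted p = 0.0422, 0.157 without P49 replicate 1, 1 of 10 such libraries). These counts rested on single libraries. When P25 replicate 2 was left out, 3 fatty acid synthesis and 3 cholesterol synthesis genes rose. In the same fit 7 triglyceride genes fell and 1 rose, and 4 fatty acid oxidation genes fell and 1 rose. When any one P29 or P49 library was left out, 0 genes of fatty acid or cholesterol synthesis rose, and each of the other 3 lists gave 0 or 1 in either direction.

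Genes of oxidative phosphorylation had lower means throughout. Of 30 genes 30 had a lower mean at P49, with a median of -0.27, 9 had an unadjusted p under 0.05, and 1 passed. That gene, Cox7a1 (chr7:30184171-30186028, ENSMUSG00000074218), is the form of a cytochrome oxidase subunit found in muscle and brown fat. It was at 19.6, 9.69 and 15.5 FPKM at P29 and 3.02, 3.38 and 5.12 at P49 (log2 -1.69 ± 0.29, adjusted p = 0.00957, 0.0564 without P49 replicate 1, 1 of 2 such libraries). The share of counted reads on mitochondrial genes was 7.34% to 9.08% at P29 and 5.69% to 7.15% at P49. Of 19 tricarboxylic acid cycle genes 17 had a lower mean and 0 passed in limma or voom, with 5 at an unadjusted p under 0.05. Without P25 replicate 2, 9 oxidative phosphorylation genes and 4 of the cycle fell, and without P29 replicate 1 or P49 replicate 1 Cox7a1 did not pass.

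**Figure D5:**
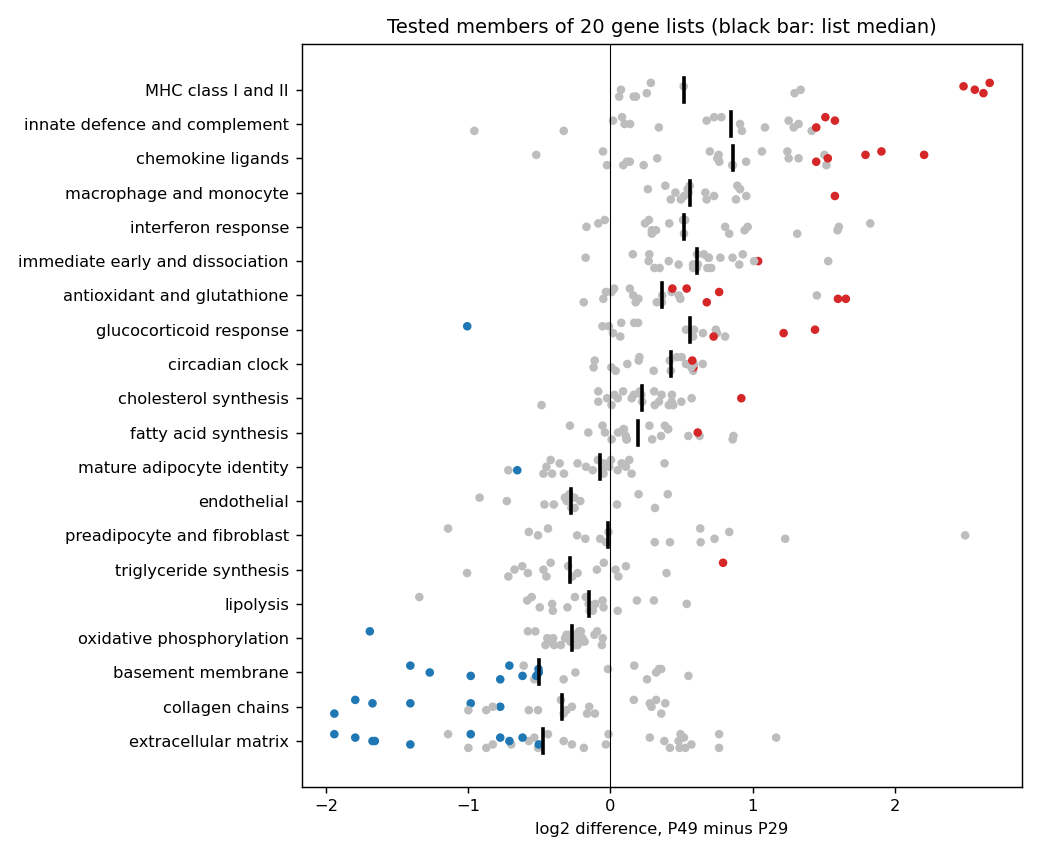
Log2 difference between P49 and P29 for each tested gene of 20 lists, 1 row per list. Red points rose, blue points fell, grey points did not pass, and the black bar is the list's median, which runs from -0.51 in basement membrane to 0.86 in chemokine ligands.

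Of 29 tested secreted signals tied to the hair cycle 2 rose and 2 fell. These counts were 6 and 3 without P25 replicate 2. None rose without P29 replicate 1, P49 replicate 1 or P49 replicate 3, and 1 fell without any one P29 or P49 library. Nog and Igf1 fell, Igf1 (insulin-like growth factor 1) from 104, 106 and 114 FPKM at P29 to 67.4, 58.7 and 66.5 at P49 (log2 -0.74 ± 0.17, adjusted p = 0.033, 0.125 without P49 replicate 2, 1 of 7 such libraries). Pdgfc and Fgf2, growth factors for mesenchymal cells, rose from 4.91 ± 0.621 to 8.27 ± 0.564 FPKM (log2 0.65 ± 0.12, adjusted p = 0.0148, 0.0821 without P49 replicate 1, 1 of 3 such libraries) and from 7.61 ± 0.869 to 12.3 ± 1.304 FPKM (log2 0.63 ± 0.15, adjusted p = 0.0417, 0.172 without P49 replicate 1, 1 of 10 such libraries). Bmp2 and Bmp4, known as inhibitors of hair growth, were at 2.61, 2.71 and 1.88 and 2.51, 3.13 and 2.25 FPKM at P29 and 3.75, 3.15 and 5.59 and 1.62, 2.56 and 1.47 at P49 (adjusted p = 0.347 and 0.624). Pdgfa and Hgf were at 4.75 ± 0.271 and 2.52 ± 0.246 FPKM at P29 and 5.14 ± 0.9503 and 2.22 ± 0.452 at P49 (adjusted p = 0.817 and 0.669). Atoh8, a transcription factor induced by bone morphogenetic proteins, was 1 of 17 TGF-beta and BMP targets to rise, from 5.06 ± 0.277 to 8.68 ± 0.799 FPKM (log2 0.67 ± 0.10, adjusted p = 0.00347), and 5 of the 17 rose without P25 replicate 2. Transcripts of the hair shaft and its sheath, which mark follicle material, summed to 4.67 to 12.5 FPKM at P29 and 0.231 to 0.613 at P49. None of their 6 tested genes passed in limma or voom and 0 had an unadjusted p under 0.05. The part of follicle material in the differences was not tested.

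Most glucocorticoid response and clock genes had a higher mean at P49. Of 18 glucocorticoid response genes 3 rose, Mt2, Mt1 and Angptl4, and 1 fell, Hsd11b1, with a median of 0.56. Angptl4, which inhibits lipoprotein lipase, rose from 150.1 ± 20.9 to 248 ± 19.6 FPKM (log2 0.73 ± 0.15, adjusted p = 0.022, 0.0966 without P29 replicate 1, 1 of 5 such libraries). Hsd11b1, the enzyme that regenerates active glucocorticoid, was at 137, 135 and 119.5 FPKM at P29 and 63.8, 66.4 and 62.9 at P49 (log2 -1.01 ± 0.17, adjusted p = 0.00878). Fkbp5, a common glucocorticoid reporter, was at 34.5, 35.6 and 33.8 and then 66.6, 49.5 and 69.9 FPKM (log2 0.81 ± 0.36, adjusted p = 0.257). Without P25 replicate 2, 7 genes of the list rose, and without P29 replicate 1 or 3 or any P49 library 0 did. Of 19 clock genes 17 had a higher mean, with a median of 0.42, and 2 rose: the repressor Cry2 (log2 0.58 ± 0.11, adjusted p = 0.0187, 0.0861 without P49 replicate 1, 1 of 5 such libraries) and the kinase Csnk1e (log2 0.58 ± 0.13, adjusted p = 0.0394, 0.141 without P29 replicate 1, 1 of 10 such libraries). The clock count was 4 without P25 replicate 2, 1 without P29 replicate 2 and 0 without any one of the other 5 P29 and P49 libraries. Arntl, Nr1d1 and Dbp, which swing through the day, were at 0.797 ± 0.377, 60.4 ± 6.65 and 87.9 ± 7.62 FPKM at P29 and 0.8201 ± 0.151, 66.5 ± 14.7 and 102 ± 15.1 at P49 (adjusted p = 0.958, 0.749 and 0.665). The labels give no time of day of harvest.

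P35 lay 6 days after P29 and 14 days before P49, 30% of the way, so the intervals on its sides are of unequal length. Between P29 and P35 limma called 0 genes (812 at an unadjusted p under 0.05) and voom 0, and between P35 and P49 it called 69, or 0.563%, with 30 higher and 39 lower. These comparisons share libraries with P49 against P29, so each is given for itself. The P35 mean lay between those of P29 and P49 for 198 of the 215 rises and 142 of the 160 falls. At P35 a rise had reached a median of 33.9% of its log2 difference and a fall 29.4%. These genes were picked for a gap between P29 and P49, which by itself favours a P35 mean inside it. The share over all tested genes was not computed, so no gradual course is read from these counts and medians. By their means, Pon1, Mest and Hpx are examples of a difference mostly after P35, and Tnf and Rbp7 of one mostly before it. For P35 against P29, Tnf and Rbp7 did not pass in limma (adjusted p = 0.635 and 0.744).

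The first interval of the series, P21 to P25, shares no library with P29 or P49. There 1027 genes rose (8.38%) and 1285 fell (10.5%). This balance depended on scaling: 1423 rose and 861 fell with quantile normalization, and 1429 and 938 with median-ratio scaling, so rises went from 44.4% of calls to 62.3% and 60.4%. Of the 160 genes lower at P49 than at P29, 64 had risen from P21 to P25, 40% of the 160 and 6.23% of the 1027, and 12 had fallen. Of the 215 genes higher at P49, 53 had fallen, 24.7% of the 215 and 4.12% of the 1285, and 15 had risen. With P25 replicate 2 left out of P21 against P25 the shares were 51.9% of the 160 and 41.4% of the 215, beside 18.4% of all tested genes that rose there and 27.6% that fell. The 64 and 53 genes became 79 and 37 with quantile normalization, 85 and 48 with median-ratio scaling, 48 and 27 without P25 replicate 3, and 18 to 37 and 17 to 40 without any one P29 or P49 library. In these refits the 160 and 215 calls changed too. They became 173 and 178 with quantile normalization, 188 and 250 with median-ratio scaling and 187 and 238 without P25 replicate 3. Without any one P29 or P49 library they were 45 to 81 and 49 to 148. Fmr1, an RNA-binding protein gene named after its values were seen, was at 47.9, 123, 155, 146 and 63.1 FPKM from the youngest to the oldest age (log2 -1.28 ± 0.15, adjusted p = 0.000982 for P49 against P29). Nid2 averaged 45.2, 109, 99.8, 70.3 and 40.5 FPKM, and Col5a3 107, 236, 290.3, 217 and 90.6. In these 3 genes the P21 and P49 means were both well below those of P25 and P29. The P21 libraries also differed in cell markers. Adipocyte identity genes had a mean log2 level of 8.71 to 8.94 at P21 and 9.35 to 9.47 at P29. In P25 replicates 1, 2 and 3 it was 9.46, 8.50 and 9.36. For preadipocyte and fibroblast genes it was 5.68 to 6.39 at P21, 4.06 to 4.78 at P29 and 4.40, 6.49 and 4.52 at P25. The part of cell make-up in the P21 to P25 changes was not tested.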

How the data were processed

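The deposited table gives FPKM for each gene and library, normalized by the authors for gene length and reads counted. The submitters' processing notes name STAR 2.5, HTSeq 0.6.1, CASAVA and FastQC, with mm10 and GRCm38 as builds. The annotation release and strand setting are not given in the sources used here. FPKM times gene length gave whole reads (within 0.05 read) for at least 99.97% of genes per library, so depth could be recovered, 23214103 to 32219574 reads, and 3 reads on a 1 kb gene equal 0.0931 to 0.129 FPKM.

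Tested genes (1 FPKM or more in 3 libraries) were fitted as log2(FPKM + 1) in R 4.3.3 by limma 3.58.1 with statmod 1.5.0. The model had a mean for each age and used the 15 libraries (10 residual degrees of freedom), trended robust empirical Bayes and Benjamini-Hochberg adjustment, at a threshold of 0.05. The fit was tested on simulated data. The members and lists were chosen with earlier results of these data known. Named were the 12 largest rises and falls past the threshold without overlap and at 5 FPKM or more, up to 4 called members per list and direction, up to 2 per cell type list, and a short set of genes whatever their values. Others were named after their values were seen, among them Tnf, Ccl2, H2-DMa, H2-DMb1, Col6a3, Col3a1, Lamc1, Sparc and Klb. Of 769 list symbols 5 were not matched. Lists are described by counts and medians, without a set test. Alternatives were other scaling, pseudocount, filters, spread models, a replicate block, library weights, a 2-fold minimum, voom on recovered reads and leaving out each library, of which those of P21, P25 replicates 1 and 3 and P35 were added after seeing the data. Promoter windows are from RefSeq, and the X box, Y box and antioxidant response element were added after values were seen. Figures used Python 3.11.15, numpy 2.4.6, pandas 2.3.3 and matplotlib 3.10.9.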

Additional observations from a re-analysis of the deposited data

How the results depend on the processing

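No called gene changed direction under any of 26 alternatives, and 32 of 85 called genes with values here kept their call without each of the 15 libraries. The ages did not overlap in any called gene. Leaving out or weighting a library, or changing the filter, therefore could not have reversed a direction. Of 375 calls (215 higher, 160 lower), 246 stood with no filter (143 and 103), 1295 with only P29 and P49 in the fit (783 and 512), 2165 with library weights (1208 and 957) and 2 with a 2-fold minimum (1 and 1). With 1 library left out the range was 94 to 1346, 49 to 768 higher and 45 to 578 lower. The cause of these shifts was not tested. Same-numbered P29 and P49 libraries correlated at -0.178, 0.133 and 0.321 in their deviations. Differently numbered libraries correlated at -0.320 to 0.229. With 3 libraries per age these values cannot settle whether the numbers pair the libraries, and the labels do not say. With the replicate block 396 genes were called (237 and 159), 325 of them shared. With voom 310 were called, 302 of them shared. For P35 against P29, 2 genes were called with no filter (1 higher, 1 lower). For P49 against P35, 69 calls (30 and 39) became 1119 with library weights (529 and 590), 0 with a 2-fold minimum in either direction, and 13 to 342 with 1 library left out (6 to 169 and 7 to 173). For P25 against P21, 2312 calls (1027 and 1285) became 5924 with weights (2305 and 3619), 0 with a 2-fold minimum, and 813 to 5634 with 1 library left out (409 to 2255 and 404 to 3379). With 3 libraries per age, differences within the spread between libraries could not be shown, whatever the depth.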

Other observations

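Feedback inhibitors of growth factor signalling through ERK, collected by symbol after their values were seen, gave 3 falls among 9 tested genes and 0 rises. Spry4 was at 25.8, 30.5 and 24.8 FPKM at P29 and 10.9, 11.03 and 12.1 at P49 (log2 -1.18 ± 0.14, adjusted p = 0.00127). Dusp4, an ERK phosphatase, fell from 78.2 ± 10.9 to 39.7 ± 8.35 FPKM (log2 -0.97 ± 0.23, adjusted p = 0.0391, 0.168 without P49 replicate 1, 1 of 10 such libraries) and Spred2 from 7.86 ± 0.828 to 4.502 ± 0.0643 FPKM (log2 -0.68 ± 0.17, adjusted p = 0.0489, 0.155 without P49 replicate 1, 1 of 11 such libraries). With any P29 or P49 library left out, or in voom, 1 of these genes fell. Klb, the beta-klotho co-receptor of FGF21, fell from 13.9 ± 1.85 to 5.44 ± 0.717 FPKM (log2 -1.21 ± 0.26, adjusted p = 0.0273, 0.113 without P49 replicate 1, 1 of 5 such libraries).

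Further genes were singled out after their values were seen. Arxes1 and Arxes2, adipocyte genes with near-identical sequences that make the split between them uncertain, were at 21.7 ± 1.403 and 67.7 ± 6.05 FPKM at P29 and 7.103 ± 0.188 and 25.9 ± 0.738 at P49 (log2 -1.48 ± 0.20, adjusted p = 0.00289 and log2 -1.35 ± 0.18, adjusted p = 0.00262). Pcsk6, a proprotein convertase, was at 8.21, 6.56 and 7.39 FPKM at P29 and 20.1, 17.3 and 18.2 at P49 (log2 1.22 ± 0.11, adjusted p = 0.000273). Adrbk2, a kinase of G protein-coupled receptors, was at 1.62, 1.73 and 1.61 and then 5.67, 4.39 and 5.64 FPKM (log2 1.22 ± 0.12, adjusted p = 0.000459). Gdf15, a stress-induced hormone, rose from 27.1 ± 1.12 to 74.9 ± 3.395 FPKM (log2 1.43 ± 0.31, adjusted p = 0.0288, 0.11 without P29 replicate 1, 1 of 6 such libraries). Slit2, a secreted guidance protein, fell from 8.61 ± 1.28 to 3.67 ± 0.447 FPKM (log2 -1.04 ± 0.19, adjusted p = 0.0148, 0.0811 without P49 replicate 1, 1 of 3 such libraries). Sqstm1, an autophagy receptor, was 1 of 21 lysosome and autophagy genes to rise, from 211 ± 20.5 to 326 ± 36.7 FPKM (log2 0.63 ± 0.15, adjusted p = 0.0379, 0.141 without P49 replicate 3, 1 of 12 such libraries), and 3 of them rose and 3 fell without P25 replicate 2. Orm2, an acute phase protein whose level is uncertain because related genes share its sequence, fell from 8.996 ± 0.465 to 4.19 ± 1.15 FPKM (log2 -0.97 ± 0.22, adjusted p = 0.0349, 0.137 without P49 replicate 3, 1 of 7 such libraries). Orm2 did not pass in voom or with quantile normalization.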
